A study of Mus musculus with 8 samples.

Results

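miR-128, miR-9, miR-138 and miR-7a are microRNAs (miRNAs) that are enriched in nervous tissue, and their 9 precursors were followed here in mouse myoblasts, the precursor cells that fuse into muscle fibres. The precursors were taken by exact name from the deposited table: mmu-mir-128-1, mmu-mir-128-2, mmu-mir-9-1, mmu-mir-9-2, mmu-mir-9-3, mmu-mir-138-1, mmu-mir-138-2, mmu-mir-7a-1 and mmu-mir-7a-2. The prefix mmu, for mouse, is left out below. They are 9 of its 1181 rows, and all 9 were listed. Small RNA had been sequenced from myoblasts of old and young C57BL/6J mice, with 4 numbered libraries per group and no other treatment or allele named. The numbers do not state that each library came from 1 mouse. The libraries are called old 1 to old 4 and young 1 to young 4 below. The sources used here name no age beyond old and young, and no isolation or culture step for the myoblasts.

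A miRNA is cut from a hairpin precursor and guides Argonaute proteins to messenger RNAs that pair with its seed, bases 2 to 8 from the 5′ end. Several hairpins at different places in the genome can give the same mature miRNA, and such hairpins are called copies here. In the nervous system miR-9 is known for its role in neural progenitors and neuronal differentiation, miR-128 and miR-138 are abundant in brain, miR-138 restricts the size of dendritic spines, and miR-7 is abundant in neurosecretory cells of the hypothalamus and in the endocrine pancreas. miR-128 is also known from muscle cells, so enrichment in neural tissue does not mean restriction to it.

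The mature sequences show why the 9 rows stand for 4 main miRNAs. They are from RefSeq (GRCm38.p6), written 5′ to 3′ with the seed in capitals, and all 9 precursors were matched.
miR-128-3p (mir-128-1 and mir-128-2): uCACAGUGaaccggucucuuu
miR-9-5p (mir-9-1, mir-9-2 and mir-9-3): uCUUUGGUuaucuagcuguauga
miR-9-3p (the same 3 precursors): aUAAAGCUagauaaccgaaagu
miR-138-5p (mir-138-1 and mir-138-2): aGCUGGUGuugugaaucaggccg
miR-7a-5p (mir-7a-1 and mir-7a-2): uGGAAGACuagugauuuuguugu
No other mature miRNA of the RefSeq table has the seed of miR-128-3p, miR-9-5p, miR-9-3p or miR-138-5p. The seed of miR-7a-5p also occurs in miR-7b-5p, whose precursor mir-7b was listed at 0 in all 8 libraries. The copies differ outside the shared arm, as the hairpins of the most abundant pair show, with miR-128-3p in capitals.
mir-128-1: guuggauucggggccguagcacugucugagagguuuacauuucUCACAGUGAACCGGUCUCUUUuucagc
mir-128-2: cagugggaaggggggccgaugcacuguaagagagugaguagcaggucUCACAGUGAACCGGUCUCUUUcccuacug
Their opposite arms are separate miRNAs with the same seed.
miR-128-1-5p: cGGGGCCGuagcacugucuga
miR-128-2-5p: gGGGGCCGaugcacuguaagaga

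The precursors lie at 9 separate places (GRCm38, the build mm10). mir-128-1 is on chromosome 1 (128202361 to 128202430, plus strand) in an intron of R3hdm1, and mir-128-2 on chromosome 9 (112118636 to 112118711, minus strand) in an intron of Arpp21, a gene known from striatal neurons. mir-7a-1 is on chromosome 13 (58392779 to 58392886, minus strand) in an intron of Hnrnpk, which encodes a widely expressed RNA-binding protein. mir-7a-2 is on chromosome 7 (78888277 to 78888373, plus strand) and overlaps no other annotated gene. mir-138-1 is on chromosome 9 (122682876 to 122682974, plus strand) in an exon of the transcribed pseudogene Gm47135, and mir-138-2 on chromosome 8 (94324311 to 94324381, plus strand) in an exon of the long non-coding RNA C78859. The mir-9 precursors lie in long non-coding RNAs on the same strand: mir-9-1 on chromosome 3 (88215598 to 88215686) in an intron of Gm3764, mir-9-2 on chromosome 13 (83738814 to 83738885) in an exon of C130071C03Rik, and mir-9-3 on chromosome 7 (79505264 to 79505353) in an intron of Mir9-3hg. The only other listed precursor within 10 kb of any of them was mir-3093, beside mir-9-1, and it was at 0 in all 8 libraries.

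The deposited values are log2 abundances with 2 decimals, floored at 0. Their linear values behave as reads per kilobase of precursor per M library reads (RPKM, M for mega), which lets levels of different precursors be compared per length and lets the reads behind a value be recovered. Read in this way the old libraries held 25.1 to 28 M reads and the young ones 30 to 39.4 M, so each young library was deeper than each old one. Old 4 and young 4 stood apart from the rest once the precursors of an imprinted stretch of chromosome 12, called the chromosome 12 cluster here, were left out. On the first principal component of the remaining 321 compared precursors (37.6% of the variance) they were at 11.8 and 17.4. The other 6 libraries were at -10.9 to 0.2. With all 359 compared precursors (49.1% of the variance) old 1 and old 2, at 9.3 and 8.7, lay on their side. Old 4 and young 4 were then at 16.9 and 15.5, and the remaining libraries at -17.8 to -5.8. In each library 588 to 635 precursors were above 0. Of the muscle markers mir-206, a muscle-specific miRNA, was at 14.78 to 16.52, while mir-1a-1 and mir-1a-2 were at 0 to 3.22, both at 0 in young 4, and mir-208b was at 0 in old 4 and young 4. Of the 5 blood markers 3 were at 0 in all libraries, as were 2 of the 6 epithelial ones. The comparison between the groups took the 359 precursors that reached a linear value of 10 in 4 or more libraries, and 6 of the 9 neural-enriched precursors were among them.

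All 9 precursors were above 0 in at least 5 libraries, at very different levels. The mir-128 copies were the most abundant, at mean log2 abundances of 10.45 and 9.52 over the 8 libraries (ranks 105 and 122 of 1181). The mir-7a copies followed at 4.91 and 4.70 (ranks 249 and 262), and the mir-138 copies at 4.44 and 3.64 (ranks 275 and 314). The mir-9 copies were at 0.97, 0.66 and 0.58, with ranks of 572, 603 and 618. mir-128-1 stood 4.25 to 6.06 log2 units under mir-206 in the same library, and mir-7a-1 8.71 to 12.04 under it.

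Within this order miR-128 and miR-9 stood apart from the other families, while the levels of miR-7a and miR-138 overlapped. mir-128-2 lay above mir-7a-1 in 8 of 8 libraries, by 4.61 ± 1.33 log2 units (SD, n = 8 libraries), and mir-138-1 above mir-9-2 in 8 of 8, by 2.67 ± 1.06. mir-7a-2 lay above mir-138-2 in 5 of 8 libraries, by 0.26 ± 0.81, which is less than its spread. The same held for mir-7a-1 over mir-7a-2 (0.21 ± 0.37, 5 of 8) and for the mir-9 copies (0.31 ± 1.1 and 0.09 ± 0.57).

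**Figure D1:**
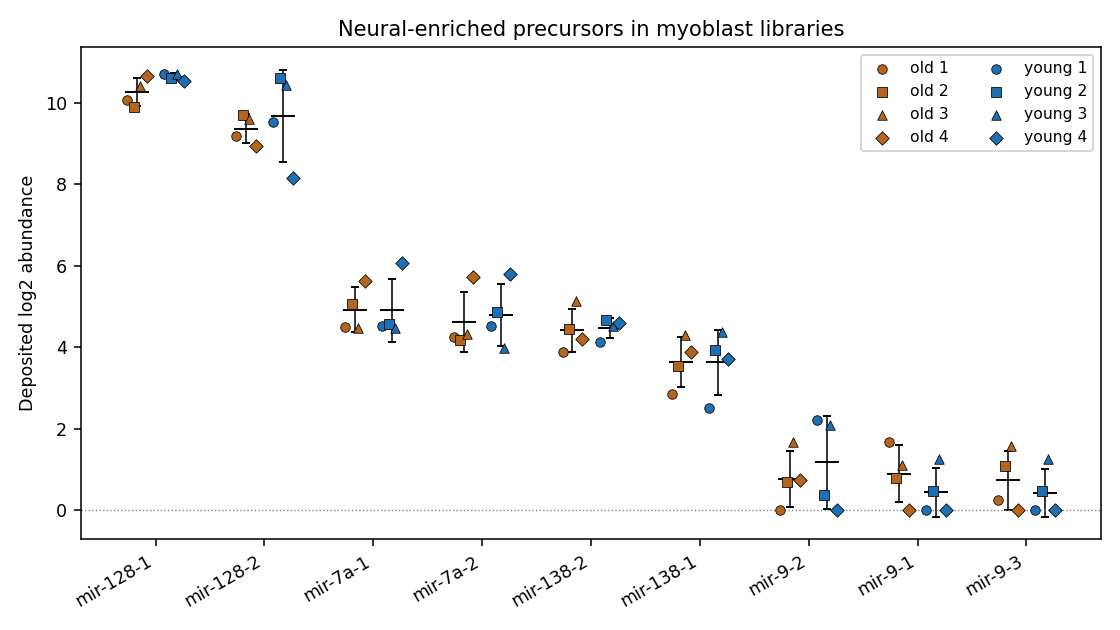
Deposited log2 abundance (vertical axis) of the 9 precursors in each library, old in brown and young in blue, with the mean and SD of each group (n = 4) as a bar. mir-128-1 and mir-128-2 lie between 8.15 and 10.71, the mir-7a and mir-138 copies between 2.51 and 6.07, and the mir-9 copies between the floor of 0 and 2.21.

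miR-128, which represses several genes of neuronal excitability and of the cell cycle, was by far the most abundant of the 4 families. Its copies together held 3351 to 7381 recovered reads per library, or 120 to 230 per M library reads. On the same scale, miR-128 averaged 139 ± 16.8 reads in the old group and 188 ± 48.9 in the young group (SD over 4 libraries each). miR-7a averaged 6.11 ± 2.91 and 6.67 ± 4.06, miR-138 2.92 ± 1.11 and 2.96 ± 0.814, and miR-9 0.415 ± 0.234 and 0.353 ± 0.3. A read that fits more than 1 copy may be counted more than once in such sums, since no source used here states the counting rule.

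mir-128-1 measured 10.08, 9.90, 10.42 and 10.66 from old 1 through old 4, and 10.71, 10.62, 10.71 and 10.53 from young 1 through young 4. The young libraries lay close together, 3 of the 4 old ones lay below all of them, and old 4 lay among them. The old mean was 10.27 ± 0.34 and the young mean 10.64 ± 0.09 (SD, n = 4 each), a log2 difference of -0.38 with an SE of 0.30. This is a young level of 1.3 times the old one, with a 95% interval from 0.82 to 2.06 times. The difference did not pass the test (limma adjusted p = 0.995, two-sided exact permutation p = 0.0857). Without old 4 it was -0.51 and the groups no longer overlapped (two-sided exact permutation p = 0.0286, which no arrangement of 3 and 4 libraries can go below), while the limma adjusted p was 1. The within-group SD of mir-128-1, 0.25, was among the smallest, with 1.11% of the 359 compared precursors below it. This held for the deposited scale only: after rescaling the libraries by median ratios the SD was 0.37, with 23.7% below it. The young values were then 11.06, 10.55, 10.92 and 9.97 and the old ones 10.38, 10, 10.43 and 10.32, so that young 4 was the lowest library, the groups overlapped with or without old 4, and the exact permutation p over all 8 libraries was 0.229.

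mir-128-2 was at 9.18, 9.70, 9.61 and 8.95 from old 1 through old 4, and at 9.52, 10.62, 10.44 and 8.15 from young 1 through young 4. Both the highest and the lowest value were found in young libraries, so the old group lay inside the young one. The means of 9.36 ± 0.36 and 9.68 ± 1.13 (SD, n = 4 each) differed by -0.32 with an SE of 0.54, and the 95% interval of young over old ran from 0.54 to 2.91 times (limma adjusted p = 0.995, exact permutation p = 0.657). This value rested on single libraries: it was -0.83 without young 4 (limma adjusted p = 0.568), -0.07 without young 3, -0.01 without young 2 and -0.19 without old 4.

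Although the mir-128 copies share their 3p arm, their values did not run in parallel. Reads from the shared arm alone, listed under both names or split evenly, would set mir-128-1 above mir-128-2 by 0.12, the log2 ratio of their lengths. The measured log2 difference was 0.90, 0.20, 0.81 and 1.71 from old 1 through old 4, and 1.19, 0, 0.27 and 2.38 from young 1 through young 4. In reads, mir-128-1 had 0.92 to 4.79 times as many as mir-128-2, from 3539 against 3842 in young 2 to 4078 against 851 in young 4. Only 4 windows of 20 bases are common to the hairpins, of 51 in mir-128-1 and 57 in mir-128-2, and the file does not separate the arms. By the same measure mir-133a-1, a muscle miRNA, held 0.99 to 1.02 times the reads of its copy mir-133a-2 in all 8 libraries.

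The other copies differed too, on far fewer reads. mir-138-2 had 0.79 to 2.19 times the reads of mir-138-1, with 17 to 68 reads behind each value, and mir-7a-1 had 0.91 to 2.06 times those of mir-7a-2, with 46 to 286. The copy of mir-138 with more reads was mir-138-2 in 6 of 8 libraries, and that of mir-7a was mir-7a-1 in 7 of 8.

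**Figure D2:**
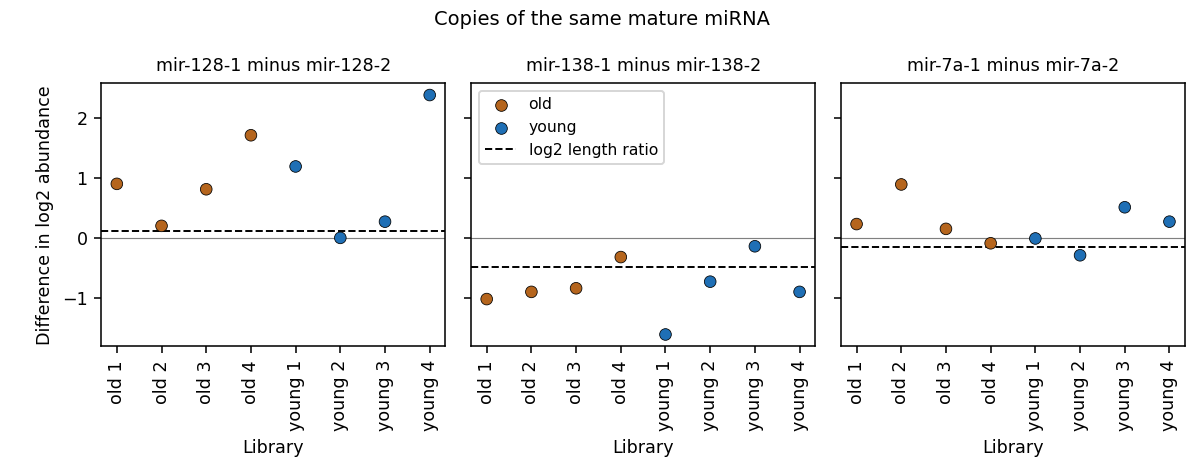
Difference in log2 abundance between copies (vertical axis) in each library (horizontal axis) for mir-128, mir-138 and mir-7a, old in brown and young in blue; the dashed line marks the log2 ratio of the lengths, which shared reads alone would give. mir-128-1 minus mir-128-2 runs from 0 in young 2 to 2.38 in young 4.

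miR-7a, which dampens growth factor signalling through Irs2 and related targets, was detected in all libraries at a low level. mir-7a-1 measured 4.49, 5.07, 4.47 and 5.63 from old 1 through old 4, and 4.51, 4.57, 4.48 and 6.07 from young 1 through young 4. mir-7a-2 measured 4.26, 4.18, 4.32 and 5.72 in the old libraries and 4.52, 4.86, 3.97 and 5.80 in the young ones. For both copies the highest libraries were young 4 and old 4, and the remaining libraries of the 2 groups overlapped. Together the copies had 10.4 reads per M library reads in old 4 and 12.7 in young 4, against 3.94 to 5.38 in the other 6 libraries.

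No difference of mir-7a with age passed the test. The old mean of mir-7a-1 was 4.92 ± 0.55 and the young mean 4.91 ± 0.78 (SD, n = 4 each), a log2 difference of 0.01 with a 95% interval from -1.17 to 1.18 (limma adjusted p = 0.995, exact permutation p = 0.971). Those of mir-7a-2 were 4.62 ± 0.74 and 4.79 ± 0.77, a difference of -0.17 with an interval from -1.42 to 1.09 (limma adjusted p = 0.995, exact permutation p = 0.714). Without young 4 the differences were 0.39 and 0.17, and without old 4 they were -0.23 and -0.53.

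miR-138, known from neurons for its action on the depalmitoylating enzyme Lypla1, was detected in all libraries, with log2 abundances near those of miR-7a. These are divided by precursor length. In reads per M library reads its means were lower, at 2.92 in the old and 2.96 in the young group against 6.11 and 6.67 for miR-7a. mir-138-1 was at 2.85, 3.54, 4.29 and 3.89 from old 1 through old 4, and at 2.51, 3.94, 4.37 and 3.70 from young 1 through young 4. mir-138-2 was at 3.87, 4.44, 5.13 and 4.21 in the old libraries and at 4.12, 4.67, 4.51 and 4.60 in the young ones. Old 1 and young 1 were the lowest of their groups for both copies, and the groups overlapped over nearly their whole range.

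The means of mir-138-1 were 3.64 ± 0.61 and 3.63 ± 0.80 (SD, n = 4 each), a difference of 0.01 with a 95% interval from -1.23 to 1.26 (limma adjusted p = 0.995, exact permutation p = 1). Those of mir-138-2 were 4.41 ± 0.53 and 4.47 ± 0.25, a difference of -0.06 with an interval from -1.05 to 0.92 (limma adjusted p = 0.995, exact permutation p = 0.857). On so few reads and with this spread, changes of about the size of the intervals in either direction were not detectable. With differences this near 0, the sign changed on leaving out single libraries: that of mir-138-1 was -0.36 without young 1 and 0.28 without old 1, and that of mir-138-2 -0.30 without old 3 and 0.12 without old 1.

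miR-9, a defining miRNA of neural progenitors, was at the edge of detection. Its 3 copies together held 11, 12, 18 and 3 reads from old 1 through old 4 and 10, 11, 24 and 0 from young 1 through young 4, so 89 reads in all 8 libraries. For the 24 reads of young 3 the 95% Poisson interval was 15.4 to 35.7, and for the 3 reads of old 4 it was 0.619 to 8.77. These cover counting error only, since reads are not independent molecules. They do not allow for a read listed under more than 1 copy. Nor do they allow for the up to 2 reads that each 0 of mir-9-1 and mir-9-3 in old 4 may hide. The highest single values were 10 reads of mir-9-2 in young 1 and in young 3.

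On the deposited log2 scale mir-9-1 was at 1.68, 0.79, 1.10 and 0 in the old libraries, in the order of their numbers, and at 0, 0.48, 1.26 and 0 in the young ones. mir-9-2 was at 0, 0.68, 1.67 and 0.73 in the old and at 2.21, 0.38, 2.09 and 0 in the young libraries. mir-9-3 was at 0.25, 1.09, 1.57 and 0 in the old and at 0, 0.46, 1.25 and 0 in the young libraries. Both groups held libraries at the floor and libraries above 1 for each copy, so they overlapped.

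The floor of the file limits what a 0 means for mir-9. mir-9-1 and mir-9-3 were listed at 0 in old 4, young 1 and young 4, and mir-9-2 in old 1 and young 4. A listed 0 still allowed 1 to 3 reads of a mir-9 precursor, depending on its length and the library's depth. In young 4, the deepest library, all 3 copies were at 0. None of the 3 reached the level needed for the comparison, so they have no place in the counts between the groups. In a fit over all 1181 rows with no filter on low values, the log2 differences were 0.46 for mir-9-1, -0.40 for mir-9-2 and 0.30 for mir-9-3 (limma adjusted p = 1 for each; exact permutation p = 0.4, 0.571 and 0.571). On these few reads the values moved with single libraries and with the method: leaving out 1 library gave 0.20 to 0.75, -0.79 to -0.05 and 0.02 to 0.57, and voom on recovered reads gave 1.24, 0.13 and 1.14.

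**Figure D3:**
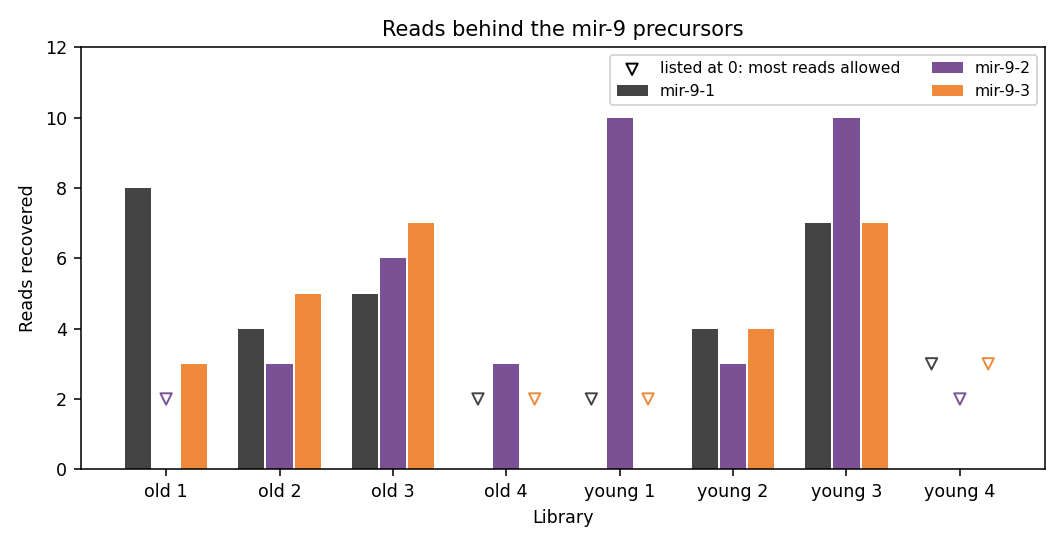
Reads recovered for each mir-9 precursor (vertical axis) in each library (horizontal axis); open triangles mark the most reads that a value listed at 0 allows. No bar exceeds 10 reads, and young 4 has none.

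Between old and young myoblasts 0 of the 6 compared neural-enriched precursors passed, against a background of 0% of the 359 compared precursors at a limma adjusted p under 0.05. At an unadjusted p under 0.05 there were 4 of 359 (1.11%) and none of the 6; that count over all precursors was 36 without old 3 and 27 without young 4, and 1 to 5 without any other library. Groups that did not overlap were found for 3 of 359 (0.836%) and for 0 of the 6. The mean was lower in old libraries for 4 and higher for 2 of the 6, with a median log2 difference of -0.11. With TMM or quantile rescaling the split was 3 and 3. With a pseudocount of 10 or without young 1 all 6 were lower, where the median over all compared precursors was -0.05 and -0.17. Over all 359, with no such change, the mean was lower in old libraries for 54%, with a median of -0.05. With 4 against 4 libraries, a two-sided exact permutation test over 70 arrangements can give no p below 0.0286. On the first principal component old 4 and young 4 stood apart with the chromosome 12 cluster left out. Without both libraries the differences were -0.55 for mir-128-1, -0.70 for mir-128-2, 0.16 for mir-7a-1 and -0.20 for mir-7a-2. Those of mir-138-1 and mir-138-2 were -0.05 and 0.05, and 0 of the 6 passed. The samples are bulk RNA, so fewer cells with a miRNA and less of it per cell cannot be told apart.

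**Figure D4:**
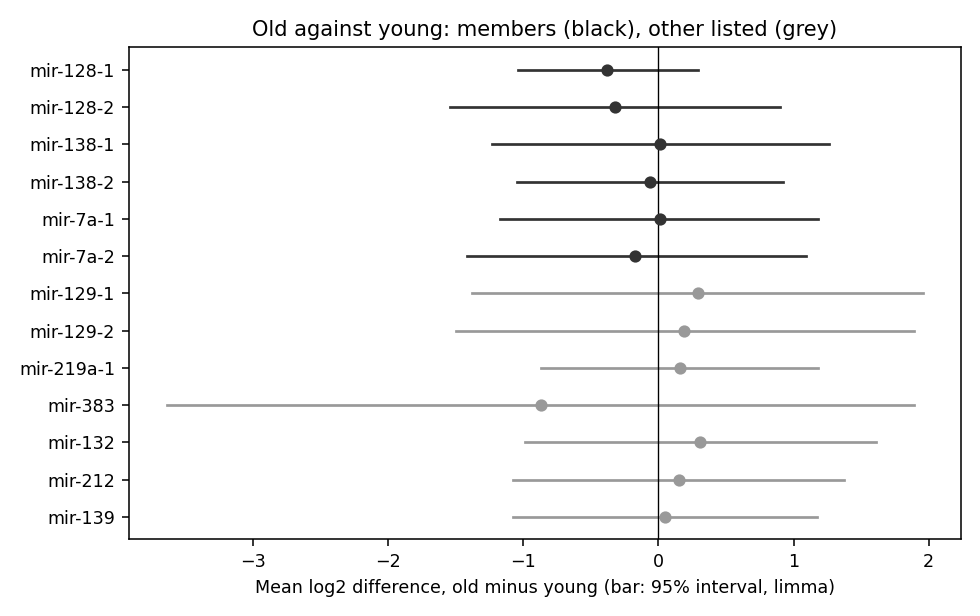
Mean log2 difference, old minus young, with its 95% interval from limma (n = 4 each), for the 6 compared members (black) and the 7 other compared nervous-system precursors (grey). All 13 intervals include 0, and that of mir-128-1, from -1.04 to 0.29, is the narrowest.

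Other miRNAs of the nervous system split in the same way into detected and near absent ones. Of 19 listed precursors, 7 were compared and 0 of these passed in either direction (limma adjusted p = 0.995 for each); 6 had a higher and 1 a lower mean in old libraries, with a median of 0.16. The most abundant were mir-132, an activity-regulated miRNA, with an old mean of 8.47 ± 0.80 and a young mean of 8.16 ± 0.97 (SD, n = 4 each), its cluster partner mir-212 at 7.98 ± 0.69 and 7.84 ± 0.92, and mir-139 at 7.38 ± 0.80 and 7.34 ± 0.57. mir-129-1 and mir-129-2, copies of a brain-enriched miRNA, had old means of 6.85 ± 0.85 and 6.68 ± 0.92 and young means of 6.56 ± 1.45 and 6.48 ± 1.44. mir-219a-1, a copy of an oligodendrocyte miRNA, was at 5.19 ± 0.63 and 5.04 ± 0.33, and mir-383 at 2.38 ± 2.74 and 3.26 ± 1.07.

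The other 12 precursors of that list did not reach the comparison. Of the mir-124 copies, whose miRNA is the most abundant in neurons, mir-124-1 was above 0 in 3 libraries at up to 2.16, mir-124-2 in 2 libraries with at most 7 reads, and mir-124-3 in 7 libraries with at most 25. mir-137 and mir-153 were each above 0 in 2 libraries, with at most 5 and 4 reads. mir-218-1, a copy of a motor neuron miRNA, was above 0 in 5 libraries with 65 reads in all, and mir-338, an oligodendrocyte miRNA, in 4 libraries with 41. mir-219a-2 was above 0 in 2 libraries with at most 5 reads, unlike its copy mir-219a-1 at 4.48 to 6.00 in all 8. mir-218-2, mir-7b, mir-384 and mir-488 were at 0 in all 8.

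Across libraries, each leading precursor was set beside the compared precursors outside the list whose log2 values were most like its own (Pearson's r over 8 libraries, given as a description). For mir-128-1 these were mir-378a (0.86), mir-378c (0.84) and mir-6896 (0.82), the first of which ranged from 16.67 in old 2 to 17.43 in old 4. For mir-138-2 they were mir-10a (0.83), mir-378b (0.74) and mir-873b (0.71), and for mir-7a-1 they were mir-129b (0.97), mir-129-2 (0.96) and mir-129-1 (0.93). mir-129b lies inside mir-129-2, so these are not separate measurements. For mir-9-2 they were mir-679 (0.93), mir-377 (0.90) and mir-299b (0.90), on 0 to 10 reads of mir-9-2 per library. mir-679, mir-377 and mir-299b were all highest in old 3, young 1 and young 3, so they need not be separate matches.

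Like the mir-7a copies, mir-129-1 was highest in old 4 and young 4. It was at 7.74 and 8.62 in these libraries and at 5.26 to 7.27 in the other 6, and mir-132 was at 9.40 and 9.43 against 7.08 to 8.64. mir-128-2 took the opposite course, at 8.95 and 8.15 against 9.18 to 10.62. High values in old 4 and young 4 were common: 119 of the 359 compared precursors (33.1%) had both above all 6 other libraries, and 16 (4.46%) had both below.

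Rescaling by median ratios, which lowered old 4 by 0.34 and young 4 by 0.56 log2 units, left the mir-7a copies above and mir-128-2 below the other 6 libraries. mir-7a-1 was then at 5.29 in old 4 and 5.51 in young 4 against 4.48 to 5.17 in the other 6 libraries, and mir-7a-2 at 5.38 and 5.24 against 4.18 to 4.87. mir-128-2 was at 8.61 and 7.59 against 9.48 to 10.65. mir-138-2, which lay within the range of the other 6 as deposited, was then below it, at 3.87 and 4.04 against 4.17 to 5.14. After the rescaling 43 of 359 precursors (12%) had both libraries above the others and 55 (15.3%) both below. Of the other compared nervous-system precursors mir-129-1, mir-129-2 and mir-132 were still above in old 4 and young 4. mir-219a-1 and mir-212 were above as deposited but no longer, at 5.66 and 4.80 against 4.78 to 5.27 and at 8.37 and 8.26 against 7.32 to 8.34. For mir-383 and mir-139 these libraries were neither both above nor both below, on either scale.

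Markers of other cell types moved with these libraries as well. As deposited, the summed log2 level of the 2 endothelial markers was 5.51 in old 4 and 6.28 in young 4 against 4.13 to 4.85 in the others, and that of the 6 epithelial markers 8.04 and 7.44 against 4.91 to 6.43. mir-126b, the higher of the endothelial markers, was at 4.67 and 5.43 against 3.29 to 4.01. mir-126a ran in parallel with it, at 4.34 and 5.11 against 2.96 to 3.68. The same reads may be listed under both names, which was not tested, so the 2 may not be separate measurements. Most of the epithelial sum was mir-205 alone, at 8.02 and 7.35 against 4.78 to 6.43. The other epithelial markers were not above the rest in both libraries. In old 4 and young 4, mir-200b was at 1.51 and 0, mir-200c at 0 and 1.73, and mir-141 at 0.73 and 2.89. mir-200a and mir-429 were at 0 in all libraries. Of the blood markers mir-142, mir-144 and mir-223 were at 0 in all libraries, and mir-150 was at 4.47 and 4.32 against 1.04 to 3.85. The sum of the 8 muscle markers was 16.26 and 15.16 against 16.18 to 17.23, and the markers differed. Those below all 6 other libraries were mir-133a-1, mir-133a-2, mir-208b and mir-499, the last at 1.60 and 0.36 against 3.45 to 5.42. mir-206 and the mir-1a copies were not below, nor was mir-133b, at 13.28 and 11.05 against 10.17 to 13.07. mir-143, the leading fibroblast and smooth muscle marker, was at 14.89 and 14.81 against 14.06 to 15.56. Of the other fibroblast and smooth muscle markers mir-199a-1, at 12.42 and 12.12 against 10.90 to 11.64, and mir-199a-2, at 11.82 and 11.54 against 10.36 to 11.04, were above all 6 other libraries, and mir-145a and mir-214 were not. After median-ratio rescaling mir-126b and mir-205 were still above, at 4.33 and 4.87 against 3.60 to 4 and at 7.68 and 6.79 against 5.03 to 6.78. The mir-133a copies, mir-208b and mir-499 were still below. mir-133b was still not below, at 12.94 and 10.49 against 10.27 to 13.27. mir-150 was then no longer above, at 4.13 and 3.76 against 1.39 to 3.81, nor were the mir-199a copies, while mir-206 was below the others, at 15.42 and 14.22 against 15.60 to 16.73. The part of these markers in the mir-7a and mir-128-2 values was not tested.

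**Figure D5:**
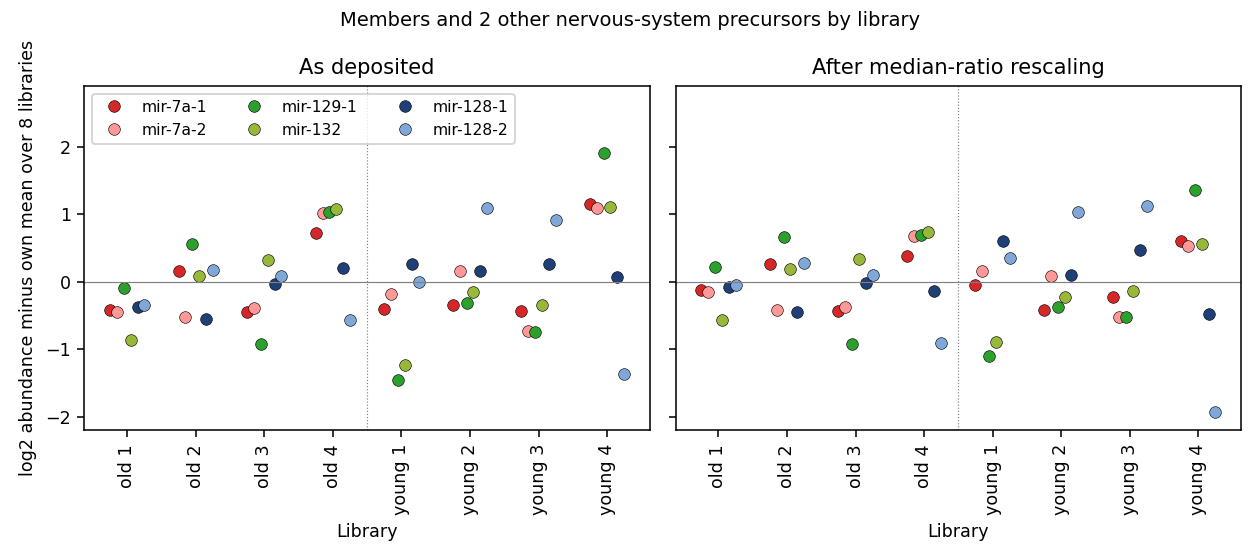
log2 abundance minus each precursor's own mean over the 8 libraries (vertical axis) by library (horizontal axis), as deposited (left) and after median-ratio rescaling (right), for mir-7a-1, mir-7a-2, mir-129-1, mir-132, mir-128-1 and mir-128-2. In old 4 and young 4 the mir-7a, mir-129-1 and mir-132 points lie above 0 and those of mir-128-2 below it in both panels. The other compared nervous-system precursors are not shown, and not all of them followed this course.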

How the data were processed

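Myoblast small RNA (mirVana kit and Illumina GAIIx, per the labels) of old mice (4 libraries) was compared with that of young mice (4 libraries). The authors deposited log2 values for 1181 precursors, floored at 0; the submitters' processing notes name BWA and mm10 without a version or role, and say nothing here on trimming, filters or reads that fit several precursors. The 9 members and all lists were chosen with earlier results of these data known.

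The deposited log2 values of 359 precursors were fitted in R 4.3.3 with limma 3.58.1, using its trended eBayes step, with Benjamini-Hochberg adjustment and a threshold of 0.05, and the script was tested on simulated data. The p-values set the difference between the groups against the spread of libraries within them. Nothing beyond the library numbers says that the libraries came from separate mice handled separately, so this is the spread between these libraries only. Library sizes were recovered from low values, which, times precursor length (1174 precursors), fell within 0.1 of a whole read in 99.1% to 100% of cases up to 12 reads. They are estimates, as are all reads given. Positions and sequences are from RefSeq (GRCm38.p6), overlapping genes from GENCODE M21.

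The text names the 9 members, precursors within 10 kb of them, the compared precursors of the nervous-system list, the 3 precursors most like each family's leading member, and the most abundant marker of each cell type; any other precursor was named with its values in view. Alternatives were other filters, pseudocounts of 1 and 10, rescaling by TMM, quantiles or median ratios, array weights or no trend in limma, a replicate block, voom on recovered reads, each library left out, and old 4 and young 4 left out. Exact permutation tests were run in R. Poisson intervals used scipy 1.17.1, and tables and figures pandas 2.3.3, numpy 2.4.6 and matplotlib 3.10.9 (Python 3.11.15).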

Additional observations from a re-analysis of the deposited data

Results flagged for a closer look

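mir-7a-1 in young 4, at 6.07 against 4.48 to 4.57 in the other young libraries, and mir-7a-2 in old 4, at 5.72 against 4.18 to 4.32 in the other old ones, lay far from the rest of their groups (Dixon's criterion, groups of 4). They were 2 of 18 groups tested over the 9 precursors, where chance gives about 1 in 20. After median-ratio rescaling neither passed the criterion: mir-7a-1 in young 4 was at 5.51 against 4.5 to 4.86, and mir-7a-2 in old 4 at 5.38 against 4.28 to 4.56. That check was chosen after seeing the data. The other copy in the same library was high too: mir-7a-2 was at 5.80 in young 4 and mir-7a-1 at 5.63 in old 4.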

How the results depend on the processing

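Under all 20 alternatives limma called 0 of the 6 compared members and 0 precursors in all, and the smallest adjusted p of a member was 0.568. Of 170 member values under the alternatives 149 kept their direction and 21 did not, all of these for mir-138-1, mir-138-2, mir-7a-1, mir-7a-2 or mir-9-2. The difference of mir-138-1 was -0.01 with a pseudocount of 10, -0.24 with array weights and -0.05 without old 4 and young 4. That of mir-138-2 was 0.02 with TMM, 0.01 with quantile normalization, 0.05 without old 4 and young 4 and 0.02 with voom. That of mir-7a-1 was -0.01 with a pseudocount of 10, and that of mir-9-2 0.13 with voom. Leaving out each library in turn gave -0.36 to 0.28 for mir-138-1, -0.30 to 0.12 for mir-138-2, -0.23 to 0.39 for mir-7a-1 and -0.53 to 0.17 for mir-7a-2; the cause was not tested. The differences of mir-128-1 stayed between -0.55 and -0.26. Quantile normalization moved the median difference of all precursors from -0.05 to 0.09. With a mean of at least 100 only the mir-128 copies were compared.

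With the replicate number as a block 0 precursors and 0 members passed at the adjusted threshold (39 precursors at an unadjusted p under 0.05, and 27 with array weights), and the difference of mir-128-1 was -0.38 (limma adjusted p = 0.939). The deviations of same-numbered libraries from their group means correlated at -0.06, 0.43, 0.66 and 0.58 for numbers 1 to 4. Old 2, old 3 and old 4 each correlated best with the young library of their number, which is a hint from the data, not the design, but old 1 did not, so the numbers were not taken to pair the mice.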
